A study of Mus musculus with 6 samples.

Results

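The 10 genes described here are cytochrome P450 enzymes of the Cyp4 family in mouse liver: Cyp4a10, Cyp4a14, Cyp4a31, Cyp4a32, Cyp4a12a, Cyp4a12b, Cyp4b1, Cyp4f13, Cyp4f14 and Cyp4v3. They were picked by symbol, with the difference between the 2 groups of this study already known, and all 10 were found among the 27381 genes measured. A further 13 measured genes carry Cyp4 names, so the 10 stand for part of the 23 Cyp4 genes on the array. The livers came from C57BL/6J mice with steatohepatitis (NASH) induced by a high-fat, high-fructose diet in which palm oil fat gave 40% and fructose 20% of the calories and cholesterol was added at 2%, begun at 10 weeks of age and kept for 32 weeks. The AAV-Glrx group received an adeno-associated virus carrying mouse Glrx, the gene of glutaredoxin-1, behind the hepatocyte-specific promoter of thyroxine-binding globulin (Serpina7). The AAV control group received the same vector without a transgene. Both were injected intraperitoneally at 1e+12 vector genomes after 20 weeks of the diet and the diet went on for 12 more weeks, so no group without the diet or without virus is compared. The study describes the mice of this diet model as wild-type males. RNA from 5 or 6 livers per group was pooled into 3 samples, and each pool was hybridized to 1 Affymetrix array. The sources used here do not say how the livers were divided among the pools, so the spread between pools is not the spread between mice.

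Cyp4 enzymes are membrane-bound P450s that oxidize fatty acids at the terminal, or ω, carbon. The ω-hydroxy acids are converted to dicarboxylic acids, which peroxisomes shorten, and the same reaction makes 20-HETE from arachidonic acid and inactivates leukotriene B4. In rodent liver, Cyp4a10 and Cyp4a14 are classic target genes of PPARα, the nuclear receptor that senses fatty acids, and their RNA is induced by fasting, fibrates and fat-rich diets. Cyp4a12a and its close copy Cyp4a12b are higher in male than in female liver and follow androgen and the male pattern of growth hormone.

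The deposited values are log2 expression, summarised per gene over its probes by the Robust Multiarray Average (RMA). A difference of 1 on this scale is a factor of 2. The array medians were 3.893 to 3.949, values ran from 0.807 to 12.9, and Pearson's r across genes between pairs of arrays was 0.987 to 0.991. Glrx itself was 6.60, 7.77 and 7.24 in AAV-Glrx 1, 2 and 3, against 6.11, 6.03 and 5.66 in AAV control 1, 2 and 3. Every AAV-Glrx pool lay above every AAV control pool, and the means differed by 1.27 log2 units (standard error 0.27), which did not pass (limma adjusted p = 0.847). Across the 12 measured hepatocyte markers of the list used here, 6 means were higher and 6 lower in AAV-Glrx, and their summed linear signal was 25640 to 26070 in AAV-Glrx pools and 25390 to 26030 in AAV control pools. Whole liver was profiled, so fewer cells of a type and less RNA per cell cannot be told apart.

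RefSeq promoter windows of GRCm38.p6, which run from 250 bases before to 50 bases after an annotated start, matched 5 of the 10 genes: Cyp4a32, Cyp4b1, Cyp4f13, Cyp4f14 with 4 starts, and Cyp4v3. The windows of Cyp4f13, Cyp4f14 and Cyp4a32 are printed to show the start regions of the Cyp4f pair, whose means were both higher in AAV-Glrx, beside the Cyp4a gene with a window. The means of Cyp4b1 and Cyp4v3, whose windows are not printed, were higher too, with log2 fold changes of 0.06 and 0.03. Cyp4f13 lies at chr17:32947312-32947611 on the minus strand, Cyp4f14 at chr17:32917280-32917579 on the minus strand, and Cyp4a32 at chr4:115600688-115600987 on the plus strand. Each is written 5′ to 3′ in the direction of transcription, and capitals mark every match to the motifs searched.
Cyp4f13: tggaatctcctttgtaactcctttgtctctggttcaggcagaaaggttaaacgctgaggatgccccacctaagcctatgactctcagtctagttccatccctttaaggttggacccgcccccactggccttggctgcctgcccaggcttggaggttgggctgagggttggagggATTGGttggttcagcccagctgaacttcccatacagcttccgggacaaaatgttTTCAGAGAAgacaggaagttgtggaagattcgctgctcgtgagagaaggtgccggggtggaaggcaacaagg
Cyp4f14: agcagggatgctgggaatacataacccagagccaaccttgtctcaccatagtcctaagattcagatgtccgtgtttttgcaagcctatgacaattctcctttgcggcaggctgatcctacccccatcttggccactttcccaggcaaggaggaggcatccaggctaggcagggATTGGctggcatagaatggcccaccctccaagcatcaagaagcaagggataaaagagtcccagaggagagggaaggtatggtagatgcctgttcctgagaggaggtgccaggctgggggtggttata
Cyp4a32: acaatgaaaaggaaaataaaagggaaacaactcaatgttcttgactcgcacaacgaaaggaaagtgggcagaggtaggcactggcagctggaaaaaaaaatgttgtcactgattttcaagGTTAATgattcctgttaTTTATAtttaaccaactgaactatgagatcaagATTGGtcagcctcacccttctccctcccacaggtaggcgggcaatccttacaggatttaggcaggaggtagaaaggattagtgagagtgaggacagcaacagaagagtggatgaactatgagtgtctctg
The motifs were searched on both strands: AGGTCA (a nuclear receptor hexamer, in 16.3% of all 32851 windows), DR1 (a pair of AGGNCA hexamers with 1 base between them, the form that PPARα binds with RXR, in 0.381%), TTCNNNGAA (the STAT5 motif, in 8.3%), GTTAAT (a core of the HNF1 motif, in 7.1%), TATAAA (in 13.6%) and CCAAT (in 37.4%). By construction, AGGTCA can fall inside a DR1. With positions counted from the start site, Cyp4f13 held TTCAGAGAA at -22 and CCAAT, read on the other strand, at -76. The printed Cyp4f14 window held CCAAT on the other strand at -77, the same site that falls into both other windows overlapping it there. Its window at the start farthest downstream held CCAAT at -24 and GTTAAT, on the other strand, at -31. Cyp4a32 held GTTAAT at -130, TATAAA on the other strand at -113 and CCAAT on the other strand at -80. The Cyp4b1 window held TTCNNNGAA at -187, and the Cyp4v3 window held none of these letters. No window of these 5 genes held AGGTCA or DR1. A match or its absence describes only the letters of a window.

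Cyp4a12a differed most between the groups. The gene (Entrez gene 277753, chromosome 4) encodes the main ω-hydroxylase that makes 20-HETE in male mice. Its log2 expression was 6.54, 6.62 and 6.18 in AAV-Glrx 1, 2 and 3, against 5.42, 3.88 and 5.30 in AAV control 1, 2 and 3. The groups did not overlap, and AAV control 2 was far lower than the other 5 pools. The means were 6.44 ± 0.23 in AAV-Glrx and 4.87 ± 0.86 in AAV control (SD, n = 3 pools each). The difference was 1.58 log2 units (standard error 0.38), which is 2.99-fold. Without AAV control 2 the log2 fold change was 1.08, and without AAV control 1 it was 1.85. This contrast was part of what chose the genes, so the values of the 10 genes are given as a description and without a test.

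Cyp4a12b (Entrez gene 13118, chromosome 4), whose protein is nearly the same as that of Cyp4a12a, was 6.86, 7.14 and 6.20 in AAV-Glrx 1, 2 and 3, against 6.68, 5.08 and 6.44 in AAV control 1, 2 and 3. AAV control 2 was again the lowest pool, and AAV-Glrx 3 lay below AAV control 1 and 3, so the groups overlapped. The means were 6.73 ± 0.48 in AAV-Glrx and 6.07 ± 0.86 in AAV control (SD, n = 3 pools each), a log2 fold change of 0.66 (standard error 0.42). The value rested on 1 pool, since it was 0.17 without AAV control 2 and 0.97 without AAV control 1. The probes of such close copies may pick up RNA of both genes. Their values were not interchangeable within an array: Cyp4a12a minus Cyp4a12b was -0.32, -0.52 and -0.02 in AAV-Glrx 1, 2 and 3, against -1.26, -1.21 and -1.14 in AAV control 1, 2 and 3. That difference between the copies had means of -0.29 in AAV-Glrx and -1.20 in AAV control and did not overlap between the groups. It describes 2 genes chosen with this contrast known and was not tested.

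**Figure D1:**
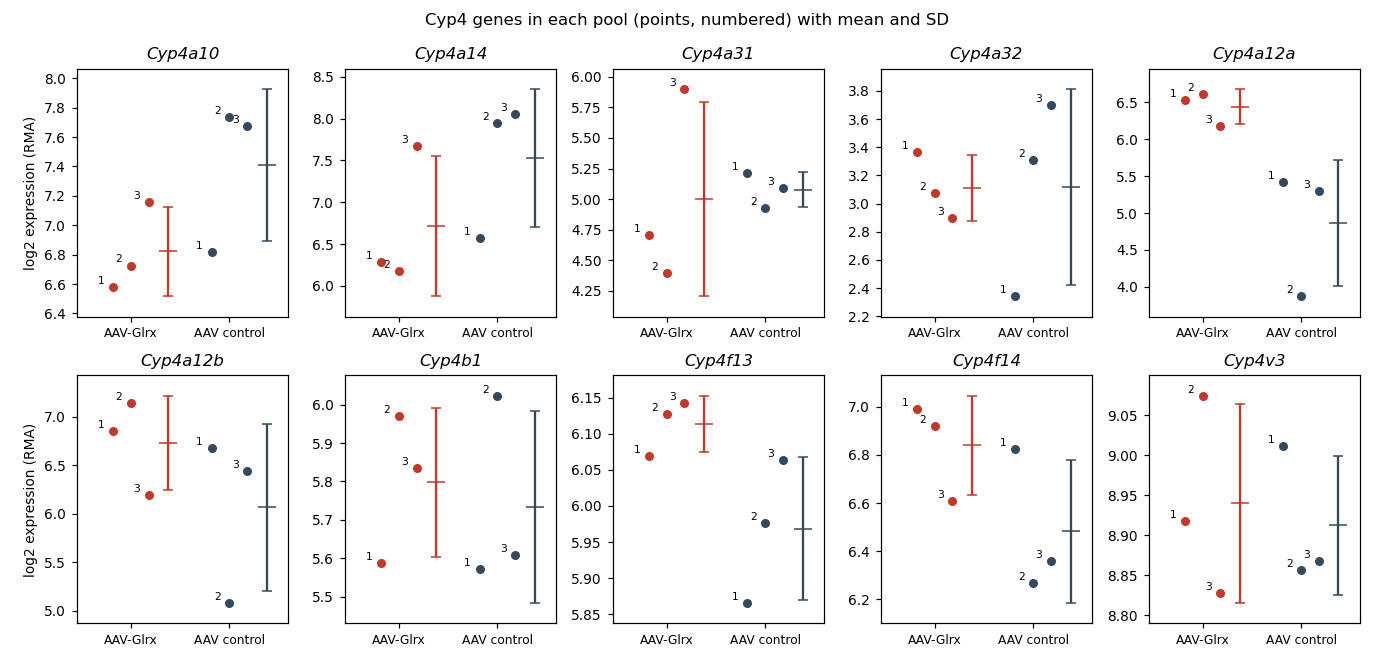
Log2 expression (RMA, vertical axes with a scale of their own) of the 10 Cyp4 genes in the 3 AAV-Glrx pools (red) and the 3 AAV control pools (dark blue), numbered by pool, with a dash for the group mean and bars for the SD. Cyp4a12a and Cyp4f13 are the genes whose groups do not overlap, and AAV control 1 stands with the AAV-Glrx pools for Cyp4a10, Cyp4a14 and Cyp4f14.

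Cyp4a14 and Cyp4a10 ran the other way in the mean, but their groups overlapped. Cyp4a14 (Entrez gene 13119, chromosome 4), an ω-hydroxylase of medium- and long-chain fatty acids that is strongly PPARα-inducible and higher in female mice, was 6.29, 6.18 and 7.67 in AAV-Glrx 1, 2 and 3, against 6.57, 7.94 and 8.06 in AAV control 1, 2 and 3. A low level was found in AAV-Glrx 1, AAV-Glrx 2 and AAV control 1, and a high level in AAV-Glrx 3, AAV control 2 and AAV control 3. The split of high and low pools thus crossed the groups, with 1 pool of each on the side of the other group. The log2 fold change was -0.81 (standard error 0.49), and the group SD was 0.83 in both AAV-Glrx and AAV control. Leaving out AAV-Glrx 3 gave -1.29 and leaving out AAV-Glrx 2 gave -0.54.

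Cyp4a10 (Entrez gene 13117, chromosome 4), the other PPARα-inducible ω-hydroxylase, was 6.58, 6.73 and 7.16 in AAV-Glrx 1, 2 and 3, against 6.82, 7.74 and 7.67 in AAV control 1, 2 and 3. The same AAV control 1 pool lay among the AAV-Glrx pools. The means were 6.82 ± 0.30 in AAV-Glrx and 7.41 ± 0.51 in AAV control (SD, n = 3 pools each), and the difference was -0.59 log2 units (standard error 0.26). Without AAV control 1 the log2 fold change was -0.88, and without AAV control 2 it was -0.42.

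Cyp4a31 (Entrez gene 666168) and Cyp4a32 (Entrez gene 100040843), both on chromosome 4 and close in sequence to Cyp4a10, had means that hardly differed. The probes of these close genes may also pick up RNA of one another, which was not measured. Cyp4a31 was 4.71, 4.40 and 5.90 in AAV-Glrx 1, 2 and 3, against 5.22, 4.93 and 5.09 in AAV control 1, 2 and 3. The AAV-Glrx pools enclosed the AAV control pools, with AAV-Glrx 3 the highest, and the log2 fold change was -0.08 (standard error 0.34). Cyp4a32 was 3.36, 3.08 and 2.90 in AAV-Glrx 1, 2 and 3, against 2.34, 3.31 and 3.70 in AAV control 1, 2 and 3. Here AAV control 1 was the lowest pool. Cyp4a32 was the only one of the 10 genes with a mean below the overall median log2 value of 3.929. Probe signal there may be close to background, which was not measured. The mean of Cyp4a32 was 3.11 ± 0.23 in AAV-Glrx and 3.12 ± 0.70 in AAV control (SD, n = 3 pools each). Leaving out single pools turned the sign of both genes, with Cyp4a31 between -0.53 and 0.23 and Cyp4a32 between -0.39 and 0.29.

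The Cyp4f members act mainly on leukotrienes and other eicosanoids. Cyp4f14 (Entrez gene 64385, chromosome 17), a leukotriene B4 ω-hydroxylase of mouse liver, was 6.99, 6.92 and 6.61 in AAV-Glrx 1, 2 and 3, against 6.82, 6.27 and 6.36 in AAV control 1, 2 and 3. AAV control 1 again lay among the AAV-Glrx pools. The means were 6.84 ± 0.20 in AAV-Glrx and 6.48 ± 0.30 in AAV control (SD, n = 3 pools each), a log2 fold change of 0.36 (standard error 0.17). Cyp4f13 (Entrez gene 170716, chromosome 17) was 6.07, 6.13 and 6.14 in AAV-Glrx 1, 2 and 3, against 5.87, 5.98 and 6.06 in AAV control 1, 2 and 3. Its groups did not overlap, although AAV-Glrx 1 and AAV control 3 nearly met, and its log2 fold change was only 0.14 (standard error 0.09).

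Cyp4b1 and Cyp4v3 were close to flat. Cyp4b1 (Entrez gene 13120, chromosome 4), best known for activating protoxins in lung, was 5.59, 5.97 and 5.83 in AAV-Glrx 1, 2 and 3, against 5.57, 6.02 and 5.61 in AAV control 1, 2 and 3, with a log2 fold change of 0.06 (standard error 0.15). Cyp4v3 (Entrez gene 102294, chromosome 8), the mouse counterpart of human CYP4V2, the gene of Bietti crystalline dystrophy of the retina, was 8.92, 9.07 and 8.83 in AAV-Glrx 1, 2 and 3, against 9.01, 8.86 and 8.87 in AAV control 1, 2 and 3. Its log2 fold change was 0.03 (standard error 0.10). In both genes the pools of the groups were interleaved.

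Taken as a list, 6 of the 10 genes had a higher mean in AAV-Glrx, where 49.5% of all genes did, and their median log2 fold change was 0.05 against -0.00122 over all genes. The groups did not overlap for 2 of the 10, both higher in AAV-Glrx, where 10.9% of all genes did not overlap and 5.51% did so with AAV-Glrx higher. None of the 10 had lower AAV-Glrx pools without overlap, the case for 5.38% of all genes. A difference of more than 1.5-fold was found for 4 (Cyp4a10, Cyp4a14, Cyp4a12a and Cyp4a12b), and for 0.672% of all genes. At an adjusted p under 0.1 (limma) 0 of the 10 were called, beside 1 of 27381 genes or 0.00365%, and at an unadjusted p under 0.05 the count was 1 of 10, beside 5.77% of all genes. Since the genes were chosen on this contrast, nothing follows from setting their counts beside those of all genes.

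The other 13 Cyp4 genes, which include Cyp4f15, Cyp4f17, Cyp4f18, Cyp4x1 and the pseudogenes Cyp4b1-ps2 and Cyp4f41-ps, lay between -0.18 and 0.13 on the log2 fold change scale. Of these 13, 6 means were higher and 7 lower in AAV-Glrx, and their median log2 fold change was -0.04. None had groups apart and none reached an unadjusted p of 0.05. The 3 with the smallest p were Cyp4f41-ps at -0.18 (standard error 0.11, limma adjusted p = 0.879), Cyp4x1os at -0.15 (standard error 0.10, limma adjusted p = 0.888) and Cyp4a30b at 0.13 (standard error 0.12, limma adjusted p = 0.917). Most were dim, with a median log2 level of 2.834 over the 13, against 6.22 over the 10 genes described.

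**Figure D2:**
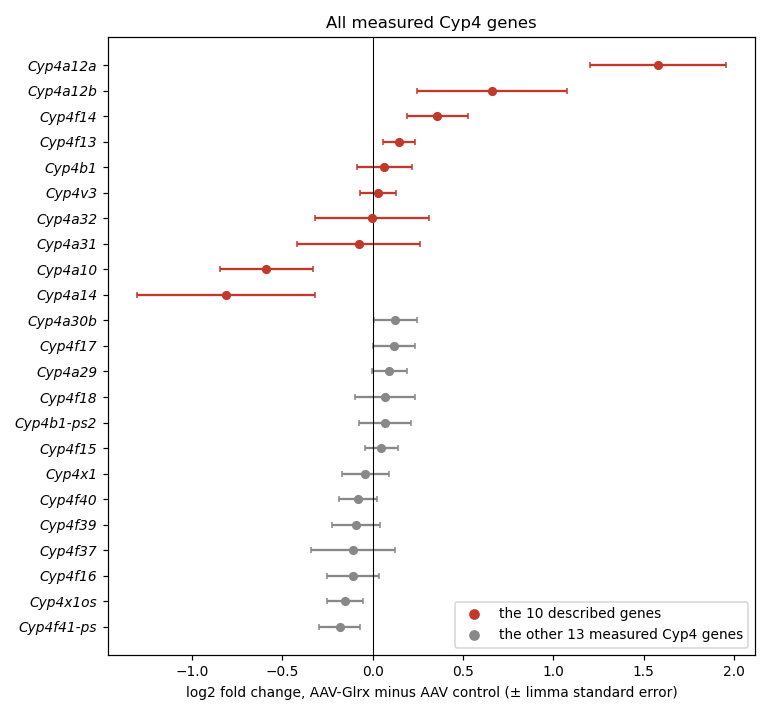
Log2 fold change of AAV-Glrx minus AAV control (horizontal axis) for the 10 described Cyp4 genes (red) and the other 13 measured Cyp4 genes (grey), with bars for limma's standard error. The described genes run from -0.81 for Cyp4a14 to 1.58 for Cyp4a12a, and the other 13 lie between -0.18 and 0.13.

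Among the 10 genes, the 6 Cyp4a genes varied widely between pools of at least 1 group, and the other 4 varied less. Probes of close copies may share signal, so the 6 may not be separate measurements. Over all 6 arrays, each of these 6 spanned 1.16 to 2.74 on the log2 scale. Cyp4b1, Cyp4f13, Cyp4f14 and Cyp4v3 spanned 0.25 to 0.72, and the median over all genes was 0.384. Cyp4a29 and Cyp4a30b, Cyp4a genes outside the 10, were dim (means of 1.91 and 1.74) and spanned 0.296 and 0.398. The widest span was that of Cyp4a12a, a 6.68-fold difference between its highest and lowest pool. Within groups, the pooled SD of the 6 Cyp4a genes among the 10 was 0.422 to 0.830, where the median gene had 0.139. These SDs stood at the 97.7th to 99.7th percentile of all genes, and at the 98.3rd to 99.8th among genes within 0.5 log2 units of the same level. The SDs of the other 4 stood between the 14.0th and the 87.3rd percentile of all genes, with Cyp4f14 the highest of them. A wide spread could lie mainly in 1 group. The SD of Cyp4a31 was 0.79 in AAV-Glrx and 0.14 in AAV control, and that of Cyp4a12a was 0.23 and 0.86.

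Some of the Cyp4 genes varied together or against each other over the pools, and most pairs did not. Of the 45 pairs among the 10 genes, 8 had a Pearson's r beyond 0.8 in size over the 6 arrays and 28 were below 0.5 in size, with a median size of 0.416. Over the 6 arrays, Cyp4a10 and Cyp4a14 had a Pearson's r of 0.949 (Spearman's rho 0.886), and 0.944 after each group's mean was subtracted. Cyp4f14 was the mirror image of Cyp4a10, with r = -0.996 (rho -1) and -0.994 after the group means were subtracted. Without AAV control 2 and AAV control 3, the pools farthest from the median of Cyp4a10, r over the remaining 4 arrays was 0.948 for Cyp4a10 with Cyp4a14 and -0.995 for Cyp4a10 with Cyp4f14. Accordingly, Cyp4a10 minus Cyp4f14 within an array was -0.41, -0.20 and 0.55 in AAV-Glrx 1, 2 and 3, against -0.01, 1.47 and 1.32 in AAV control 1, 2 and 3. AAV control 1 lay between the AAV-Glrx pools also on this measure.

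Cyp4a12a and Cyp4a12b had r = 0.877 (rho 0.829) over the 6 arrays, and 0.967 after each group's mean was subtracted. That relation rested on extreme pools: without AAV control 2 and AAV-Glrx 2, r over 4 arrays was 0.194. Between the male-biased and the PPARα-inducible gene, Cyp4a12a and Cyp4a10, r was -0.805 (rho -0.886), but -0.311 without AAV control 2 and AAV control 3. Cyp4a12b with Cyp4a10 went from -0.793 to -0.855 without the same pools. Without AAV control 2 and AAV-Glrx 2, Cyp4a14 went from -0.675 to -0.439 with Cyp4a12a and from -0.762 to -0.847 with Cyp4a12b. Cyp4a14 minus Cyp4a12a within an array was -0.25, -0.44 and 1.498 in AAV-Glrx 1, 2 and 3, against 1.16, 4.07 and 2.76 in AAV control 1, 2 and 3. The AAV-Glrx 3 pool lay above AAV control 1 here. The pairs described were picked from the 45 for their size or set beside such a pair. The arrays share their hybridization and normalization, and no p is given.

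**Figure D3:**
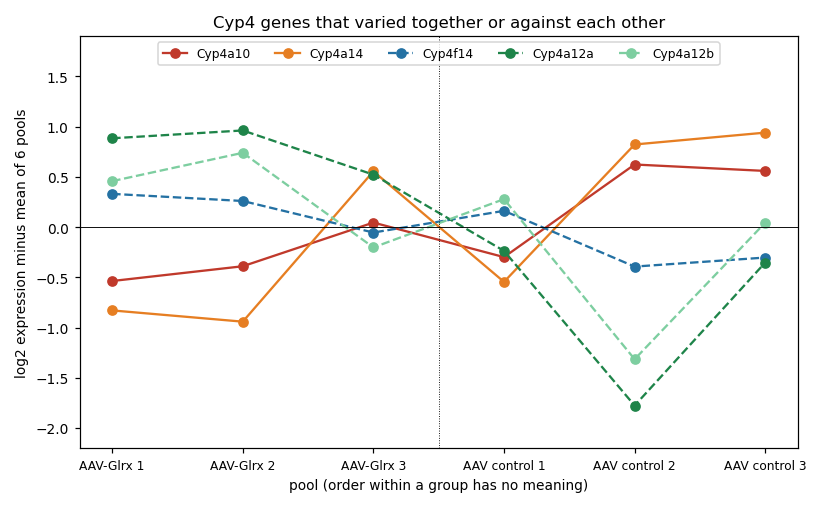
Log2 expression minus the mean of the 6 pools (vertical axis) for 5 Cyp4 genes in each pool (horizontal axis, AAV-Glrx pools left of the dotted line). Cyp4a10 and Cyp4a14 (solid lines) are below their means in AAV-Glrx 1, AAV-Glrx 2 and AAV control 1, where Cyp4f14 and Cyp4a12b (dashed lines) are above theirs. The mirror is not exact, since Cyp4a12a (dashed) is above its mean in all AAV-Glrx pools and below it in all AAV control pools, and Cyp4a12b is also above its mean in AAV control 3.

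The genes most like Cyp4a14 over the 6 arrays, among 20818 genes ranked by Pearson's r, were Cebpzos (r = 0.997), Olfr862 (0.995), AU023762 (0.993), LOC115487370 (0.988) and Pan3 (0.988). Those most like Cyp4a12a were Tbrg4 (r = 0.993), Icam1 (0.986), Efcab1 (0.985), Fnta (0.981) and Casd1 (0.979). Values of r above 0.95 were found for 50 genes with Cyp4a14 and for 40 with Cyp4a12a. With 6 arrays and so many genes, such values are a description of these arrays.

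PPARα and its other targets were set beside the Cyp4a genes. Ppara, the receptor itself, was 8.51, 8.53 and 8.45 in AAV-Glrx 1, 2 and 3, against 8.13, 8.44 and 8.48 in AAV control 1, 2 and 3, and the groups overlapped, with a difference of 0.15 log2 units (standard error 0.11, limma adjusted p = 0.899), or 0.04 without AAV control 1. Of 29 measured targets other than Cyp4 genes, 21 means were higher and 8 lower, with 1 in each direction at an unadjusted p under 0.05 and a median log2 fold change of 0.04, or -0.02 without AAV control 1. Those 2 were Slc27a1, a fatty acid transporter at 0.26 (standard error 0.09, limma adjusted p = 0.847), and Pdk4, the kinase that shuts down pyruvate dehydrogenase, at -0.38 (standard error 0.13, limma adjusted p = 0.847). Pdk4 was 5.25, 5.57 and 5.24 in AAV-Glrx 1, 2 and 3, against 5.78, 5.54 and 5.88 in AAV control 1, 2 and 3, so that AAV-Glrx 2 lay just above AAV control 2. Acot3, an acyl-CoA thioesterase, was at 0.36 (standard error 0.18, limma adjusted p = 0.858), or 0.16 without AAV-Glrx 3.

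Among the other targets named by rule, Ehhadh and Fgf21 were near 0. Ehhadh, the bifunctional enzyme of peroxisomal β-oxidation, was at -0.07 (standard error 0.13, limma adjusted p = 0.961) and Fgf21, the fasting hormone of liver, at -0.04 (standard error 0.16, limma adjusted p = 0.988). Cpt1a, which admits fatty acids to mitochondria, was at 0.22 (standard error 0.14, limma adjusted p = 0.880), or 0.06 without AAV control 1, and Vnn1, a pantetheinase, at 0.15 (standard error 0.13, limma adjusted p = 0.913), or 0.0099 without that pool. Over the arrays, the target list's median deviation had an r of 0.389 with Cyp4a10, 0.328 with Cyp4a14 and -0.350 with Cyp4f14. It was larger with Cyp4a32 (0.767), Cyp4f13 (0.756) and Cyp4b1 (0.641). With Cyp4a12a, Cyp4a12b, Cyp4a31 and Cyp4v3 it was -0.0019, -0.22, -0.28 and -0.27.

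The enzymes that use the products of ω-hydroxylation moved little. Of 22 measured genes for the oxidation and peroxisomal shortening of ω-hydroxy and dicarboxylic acids, 13 means were higher and 9 lower, with 1 higher at an unadjusted p under 0.05 and a median log2 fold change of 0.01. The leading gene was Acox3, a peroxisomal acyl-CoA oxidase of branched chains, at 0.22 (standard error 0.09, limma adjusted p = 0.857), with all AAV-Glrx pools above all AAV control pools. Scp2 and Slc27a2 followed at 0.13 (standard error 0.09, limma adjusted p = 0.881) and 0.12 (standard error 0.10, limma adjusted p = 0.905), the second at 0.04 without AAV control 1. Of 26 eicosanoid genes other than Cyp4, 15 means were higher and 11 lower and the median was 0.01. An unadjusted p under 0.05 was reached by 3 that were higher and 1 that was lower.

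The 3 genes of smallest p in that list included Cyp2c29 and Cyp2c54, of the arachidonic acid epoxygenase family Cyp2c. Cyp2c29 was 8.42, 8.50 and 8.94 in AAV-Glrx 1, 2 and 3, against 8.92, 9.21 and 9.23 in AAV control 1, 2 and 3, at -0.50 (standard error 0.16, limma adjusted p = 0.847). Cyp2c54 was 4.84, 4.98 and 4.38 in AAV-Glrx 1, 2 and 3, against 4.34, 4.27 and 3.996 in AAV control 1, 2 and 3, at 0.53 (standard error 0.17, limma adjusted p = 0.847). AAV-Glrx 3 was the pool nearest to AAV control for both, and the groups overlapped for Cyp2c29 only. Ltc4s, leukotriene C4 synthase, was at 0.29 (standard error 0.12, limma adjusted p = 0.850). Cyp2u1, a fatty acid hydroxylase named after its values were seen, had the largest difference of the list at 0.58 (standard error 0.24, limma adjusted p = 0.856), with overlapping groups. Electron donors and haem enzymes, which every P450 needs, were split 7 higher and 8 lower among 15, with a median of -0.00078 and none at an unadjusted p under 0.05. Their leading genes were Cpox at 0.24 and Fech at 0.18, enzymes of haem synthesis, and Hmox1, which degrades haem, at -0.26 (limma adjusted p = 0.858, 0.858 and 0.859). Cpox was at 0.14 without AAV control 1 and Hmox1 at -0.15 without AAV-Glrx 1.

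Genes with a male bias in mouse liver were higher in AAV-Glrx in the mean, as Cyp4a12a was. Of 18 measured genes, Cyp4 genes not among them, 16 means were higher and 2 lower, with a median log2 fold change of 0.49. At an unadjusted p under 0.05, 9 of the 18 were higher and none lower, beside 5.77% of all genes in either direction, and for 6 the groups did not overlap, beside 5.51% of all genes with AAV-Glrx higher. None passed at an adjusted p under 0.1 (limma). Serpina4-ps1 was at 2.47 (standard error 0.44), Slc22a30, of the organic anion transporter family, at 0.85 (standard error 0.16) and Ugt2b38, a glucuronosyltransferase, at 0.53 (standard error 0.14), each with a limma adjusted p of 0.847. Ugt2b38 was dim, with pools from 1.37 to 2.33 on the log2 scale, below the overall median of 3.929, where signal may be close to background. The whole list was fixed by hand with earlier results of these data known, so its counts beside those of all genes are only a description. Serpina4-ps1 and Slc22a30 were listed with their own change known. The 16 genes without them had 14 higher and 2 lower means, 7 at an unadjusted p under 0.05 and a median of 0.46. Leaving these genes out does not make the rest of the list independent of the data. The list's median deviation from the mean of 6 pools was 0.38, 0.40 and -0.13 in AAV-Glrx 1, 2 and 3, against -0.07, -0.42 and -0.25 in AAV control 1, 2 and 3. AAV-Glrx 3 lay below AAV control 1, and AAV control 2, the lowest, was also the lowest pool of Cyp4a12a and Cyp4a12b.

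Genes with a female bias were lower in AAV-Glrx in the mean more often than higher. Of 19 measured, 5 means were higher and 14 lower in AAV-Glrx, with a median of -0.14 and 1 lower at an unadjusted p under 0.05, or none of 17 without Atp6v0d2 and Abcd2, which other lists or earlier results also hold. The median depended on single pools and on dim genes: it was -0.05 without AAV-Glrx 1, -0.08 without AAV-Glrx 2 and -0.23 over the 8 genes above the median level. Atp6v0d2 was at -0.54 (standard error 0.22, limma adjusted p = 0.850), Nipal1 at -0.41 (standard error 0.20, limma adjusted p = 0.858) and Sult1e1, the oestrogen sulfotransferase, at 0.54 (standard error 0.28, limma adjusted p = 0.859). Single pools moved these too, to -0.28 for Atp6v0d2 without AAV-Glrx 2, -0.24 for Nipal1 without AAV-Glrx 1 and 0.31 for Sult1e1 without AAV control 3. The list's median deviation was -0.08, -0.17 and 0.11 in AAV-Glrx 1, 2 and 3, against 0.05, 0.13 and 0.08 in AAV control 1, 2 and 3. AAV-Glrx 3 was again on the side of AAV control. The male-biased list had an r over 6 arrays of 0.868 with Cyp4a12a, 0.838 with Cyp4a12b, 0.926 with Cyp4f14, -0.899 with Cyp4a10 and -0.901 with Cyp4a14.

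Transcription factors and receptors known to act on Cyp4 genes or on sex-biased liver genes were split 13 higher and 11 lower among 24, with a median of 0.01 and 1 higher at an unadjusted p under 0.05. Srebf1, the lipogenic factor, was at 0.25 (standard error 0.11, limma adjusted p = 0.858), Nr1h4, the bile acid receptor, at 0.23 (standard error 0.11, limma adjusted p = 0.858) and Onecut1, also called HNF6, at 0.96 (standard error 0.49, limma adjusted p = 0.862). Onecut1 was 7.62, 6.91 and 7.97 in AAV-Glrx 1, 2 and 3, against 5.36, 6.89 and 7.38 in AAV control 1, 2 and 3. AAV control 1 was its lowest pool by far, and the log2 fold change without that pool was 0.37.

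**Figure D4:**
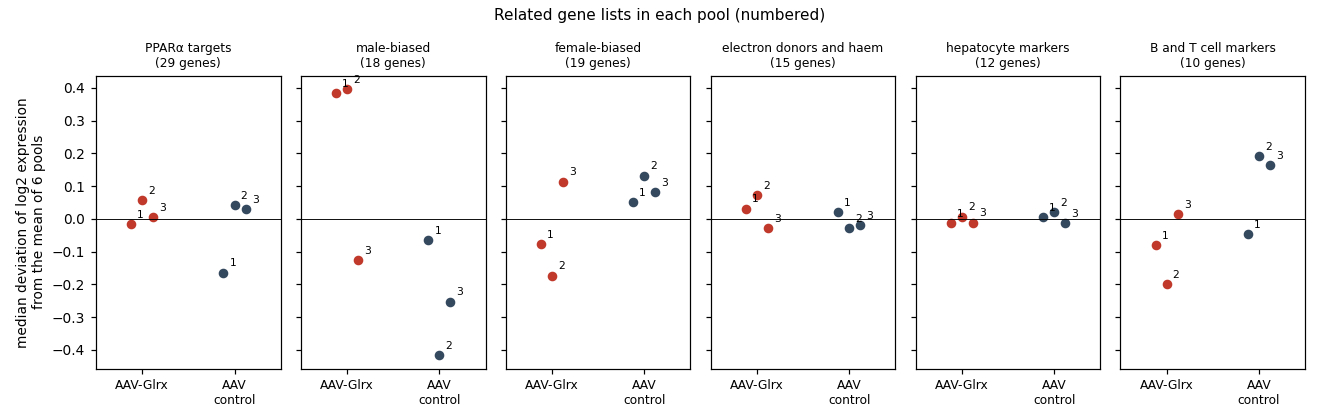
Median deviation of log2 expression from the mean of 6 pools (vertical axis) over the measured genes of 6 lists in the 3 AAV-Glrx pools (red) and the 3 AAV control pools (dark blue), numbered by pool. The male-biased list runs from -0.13 to 0.40 in AAV-Glrx and from -0.42 to -0.07 in AAV control, while the PPARα targets lie between -0.02 and 0.06 except in AAV control 1, at -0.16.

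B and T cell markers were lower in the same pools as Cyp4a10 and Cyp4a14. Of 10 measured B and T cell markers, 9 means were lower in AAV-Glrx, with a median log2 fold change of -0.26. An unadjusted p under 0.05 was reached by 3 of the 10, beside 5.77% of all genes, and none passed at an adjusted p under 0.1 (limma, lowest 0.847). This list too was fixed with earlier results of these data known. The summed linear signal of the 10 markers was 152 to 170 in AAV-Glrx pools and 173 to 207 in AAV control pools, with no overlap. Only 5 of the 10 lay above the overall median log2 value of 3.929, and those 5 had a median log2 fold change of -0.30. The list's median deviation was -0.08, -0.20 and 0.02 in AAV-Glrx 1, 2 and 3, against -0.05, 0.19 and 0.17 in AAV control 1, 2 and 3, the order of pools seen for Cyp4a10 except that AAV-Glrx 1 and AAV-Glrx 2 changed places. Its r over 6 arrays was 0.933 with Cyp4a10, 0.928 with Cyp4a14, -0.941 with Cyp4f14 and -0.831 with Cyp4a12a. The group difference is part of these values too. Values of such size were not particular to this list and the male-biased one. The electron donor and haem list had r = -0.803 with Cyp4a10, -0.929 with Cyp4a14, 0.835 with Cyp4f14 and 0.635 with Cyp4a12a. The median log2 fold change of that list was -0.00078. Of 12 Kupffer cell and macrophage markers 11 means were lower, with a median of -0.11 (0.02 without AAV control 1) and summed signals of 1611 to 1984 in AAV-Glrx and 1765 to 2463 in AAV control. That list was highest in AAV control 1, where Cyp4a10 and Cyp4a14 were low, and its r over 6 arrays was -0.189 with Cyp4a10, -0.204 with Cyp4a14 and 0.151 with Cyp4f14. It was -0.899 with the dim Cyp4a32, -0.588 with Cyp4f13 and 0.476 with Cyp4v3. With Cyp4a12a, Cyp4a12b, Cyp4a31 and Cyp4b1 it was between -0.095 and 0.271. The summed signals of stellate cell markers (1730 to 1940 in AAV-Glrx and 1695 to 1892 in AAV control), endothelial markers (1038 to 1189 and 1155 to 1191) and cholangiocyte markers (91.9 to 114 and 108 to 115) overlapped. The part of any of these lists in the Cyp4 values was not tested.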

How the data were processed

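Whole-liver RNA from 3 AAV-Glrx and 3 AAV control pools was measured on Affymetrix Mouse Gene arrays. The authors deposited log2 expression per Entrez gene, made by RMA (affy 1.61.0 in R 3.6.0, according to the processing notes of the submitters). RMA gives all arrays the same distribution of probe signals, so a shift of most genes could not be seen. No genome build of the probe sets is stated in the sources used here. Columns of the authors' own fold changes and p-values in the supplement were not used.

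The log2 values were fitted as deposited with limma 3.58.1 (lmFit and eBayes, R 4.3.3), without covariates or filters, and Benjamini-Hochberg adjustment ran over all 27381 genes. A gene was called at an adjusted p under 0.1. With 3 pools against 3 the smallest two-sided exact permutation p is 0.1, so the precision is limited by the number of arrays. Symbols came from the platform annotation for 26794 genes. The fit was tested on simulated data. Scan dates were not analysed here.

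The 10 genes and the lists were chosen with earlier results of these data known. Genes were named by rule: the 10 genes, the 3 smallest p among other Cyp4 genes, Glrx, 8 set genes of PPARα and P450 function, the 3 smallest p in each of 7 related lists, and the 5 genes most like Cyp4a14 and Cyp4a12a without Gm or Rik names. Of the 227 listed symbols, 23 were not analysed here, nor were 2 genes of the rule. Alternatives were another variance prior, centring, quantile normalization, a filter on dim genes, weights for arrays, a block for the replicate number, other thresholds and leaving out each array.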

Additional observations from a re-analysis of the deposited data

How the results depend on the processing

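With no array left out, the Cyp4 values of all alternatives moved by less than the within-group SD, and Cyp4a10 and Cyp4a14 stayed lower and Cyp4a12a, Cyp4a12b, Cyp4f13 and Cyp4f14 higher in AAV-Glrx. Leaving out single arrays kept those 6 directions too, over ranges of -0.88 to -0.42, -1.29 to -0.54, 1.08 to 1.85, 0.17 to 0.97, 0.09 to 0.19 and 0.25 to 0.53, while Cyp4a31, Cyp4a32, Cyp4b1 (-0.02 to 0.21) and Cyp4v3 (-0.04 to 0.08) changed sign. The count of the 10 with a higher mean was 5 to 7, and their median 0.03 to 0.12. With the mean instead of the median it was 0.14.

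The 1 gene called over all genes, not a Cyp4 gene, was lost (0 genes) with another quantile normalization, with the replicate block and at an adjusted p under 0.05. Leaving out single arrays gave 0 to 2 genes, with 2 without AAV control 1 and 0 without AAV control 2, AAV control 3, AAV-Glrx 1 or AAV-Glrx 3. Same-numbered pools did not deviate together (r of -0.04, -0.17 and 0.02), and differently numbered pools had r from -0.14 to 0.18. These values gave no sign of pairing by number. They cannot exclude it, since deviations from the mean of 3 arrays must sum to 0. With genes above the median level only, 957 genes had an unadjusted p under 0.05, against 1579 over all genes. Fewer genes were tested there, so these counts cannot be read as shares.

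Several list medians moved past their own spread. That of the other Cyp4 genes was 0.069 for the 3 above the median level and -0.12 to 0.045 leaving out single arrays. Leaving out single arrays gave -0.0047 to 0.077 for genes downstream of ω-hydroxylation, -0.017 to 0.050 for eicosanoid genes and -0.021 to 0.044 for hepatocyte markers. Hepatocyte markers were at -0.0031 with centred arrays and -0.035 by the mean, and regulators at 0.068 by the mean. Other medians stayed within their spread when single arrays were left out. They were 0.41 to 0.73 for male-biased genes, -0.14 to -0.05 for female-biased genes and -0.11 to 0.13 for cholangiocyte markers. Ehhadh turned to 0.013 without AAV-Glrx 1, and Fgf21 to 0.0041 with array weights, 0.020 without AAV control 2, 0.033 without AAV-Glrx 2 and 0.080 without AAV-Glrx 3, within a range of -0.22 to 0.080. In none of these was the cause tested. The planned average of members with near-identical proteins was not run, as no protein table was used here. An average of Cyp4a12a with Cyp4a12b and of Cyp4a10 with Cyp4a31 and Cyp4a32, chosen after seeing the data, gave a median of 0.06. Dim genes such as Cyp4a32 may be limited by signal near background, a level that was not measured here.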
